A study of Mus musculus with 10 samples.

Results

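The genes of cholesterol and fatty acid synthesis were followed through basal and suprabasal mouse keratinocytes with and without progerin, the truncated lamin A of Hutchinson-Gilford progeria (HGPS). The list named 31 genes: 18 enzymes of sterol synthesis, 5 genes of its regulation and transport, and 8 enzymes of fatty acid synthesis. Members were the loci of status OK, the authors' mark of a completed test, whose gene name contained a listed symbol. A locus was found for 30 of them, 29 of 11290 loci in the basal table and 30 of 11464 in the suprabasal table. Msmo1 stood under its older symbol Sc4mol, Acss2 had a locus only in the suprabasal table, and Mvd was not analysed here.

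All samples came from the skin of FVB/N mice at postnatal day 4, and the genotype was Wild type or bitransgenic HGPS (BT). The labels do not name the transgenes or the promoter that drives them. Primary keratinocytes had been sorted by flow cytometry into a basal and a suprabasal fraction, with 3 wild type and 2 bitransgenic samples of each. RNA was sequenced from 10 ng of total RNA per sample after amplification. The authors give 1 level per group and locus, read here as FPKM (fragments scaled by transcript length and library size), so no level has a replicate error and no depth can be given. Log2 fold changes are bitransgenic over wild type, and the value after ± is their standard error (SE), derived from the authors' p-value.

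Cells make cholesterol from acetyl-CoA through mevalonate, the isoprenoids, squalene and lanosterol, and fatty acids from the same acetyl-CoA through malonyl-CoA. Both routes are driven by the SREBP transcription factors, which Scap carries to the Golgi for activation when sterols are low and which Insig proteins hold back when sterols are high. Keratinocytes make much of their own lipid, and the upper layers of the epidermis package cholesterol, fatty acids and ceramides into the permeability barrier. The isoprenoid step also bears on progeria, since farnesyl diphosphate is the donor of the farnesyl group that progerin keeps.

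The promoters of 4 members are shown because results below turn on them: Hmgcs1 had the highest level of the sterol enzymes in wild type cells, Mvk and Insig1 had the lowest p-values in suprabasal cells, and Elovl6 had the lowest in basal cells. The sequences are from RefSeq (GRCm38.p6, the mm10 build of the files), read 5′ to 3′ on the plus strand, and end before the annotated transcripts begin. Capitals mark the letters of 3 motifs searched on both strands, none of which contains another: the SREBP site TCACNCCAC, the CCAAT box and the E-box CACGTG.
Hmgcs1: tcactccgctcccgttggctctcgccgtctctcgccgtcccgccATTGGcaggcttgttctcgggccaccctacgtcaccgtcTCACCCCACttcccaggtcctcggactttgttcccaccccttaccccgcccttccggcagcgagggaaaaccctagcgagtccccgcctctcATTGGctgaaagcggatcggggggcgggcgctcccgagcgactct
Mvk: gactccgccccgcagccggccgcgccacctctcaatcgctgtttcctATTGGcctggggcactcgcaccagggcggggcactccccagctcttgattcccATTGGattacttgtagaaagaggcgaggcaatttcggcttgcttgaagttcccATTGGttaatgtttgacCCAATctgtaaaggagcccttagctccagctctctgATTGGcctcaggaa
Insig1: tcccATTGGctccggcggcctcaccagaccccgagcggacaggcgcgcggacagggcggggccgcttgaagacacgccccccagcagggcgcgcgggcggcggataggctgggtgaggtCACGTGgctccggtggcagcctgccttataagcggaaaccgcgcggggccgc
Elovl6: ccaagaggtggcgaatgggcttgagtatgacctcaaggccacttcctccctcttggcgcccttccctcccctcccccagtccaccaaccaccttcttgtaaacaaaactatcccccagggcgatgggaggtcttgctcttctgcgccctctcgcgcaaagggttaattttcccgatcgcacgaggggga

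The windows lie at chr13:119690131-119690350 for Hmgcs1, chr5:114444049-114444268 for Mvk, chr5:28071192-28071362 for Insig1 and chr3:129532166-129532354 for Elovl6. The Hmgcs1 stretch held 1 SREBP site and 2 CCAAT boxes, the Mvk stretch 5 CCAAT boxes, and the Insig1 stretch 1 CCAAT box and 1 E-box. None of these letters occurred in the Elovl6 stretch. Over whole windows of 300 bases (250 before to 50 after the start), 25 of the 31 listed genes had an entry. The CCAAT box was in 21 of the 25 (84%, against 41.1% of all 27025 genes with a window). The E-box was in 5 (20%, against 8.09%) and the SREBP site in 1, Hmgcs1 (4%, against 1.44%). These matches describe the letters and are not mapped binding sites.

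The typical sterol enzyme stood above the typical locus. The median level of the 17 measured sterol enzymes was 17.0 FPKM in wild type basal, 18.9 in bitransgenic basal, 26.8 in wild type suprabasal and 26.2 in bitransgenic suprabasal cells. Over all loci of status OK the medians were 12.7, 11.3, 12.4 and 11.7 FPKM in the same order, which is kept for every set of 4 levels below. The plot of levels shows each member in all groups.

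**Figure D1:**
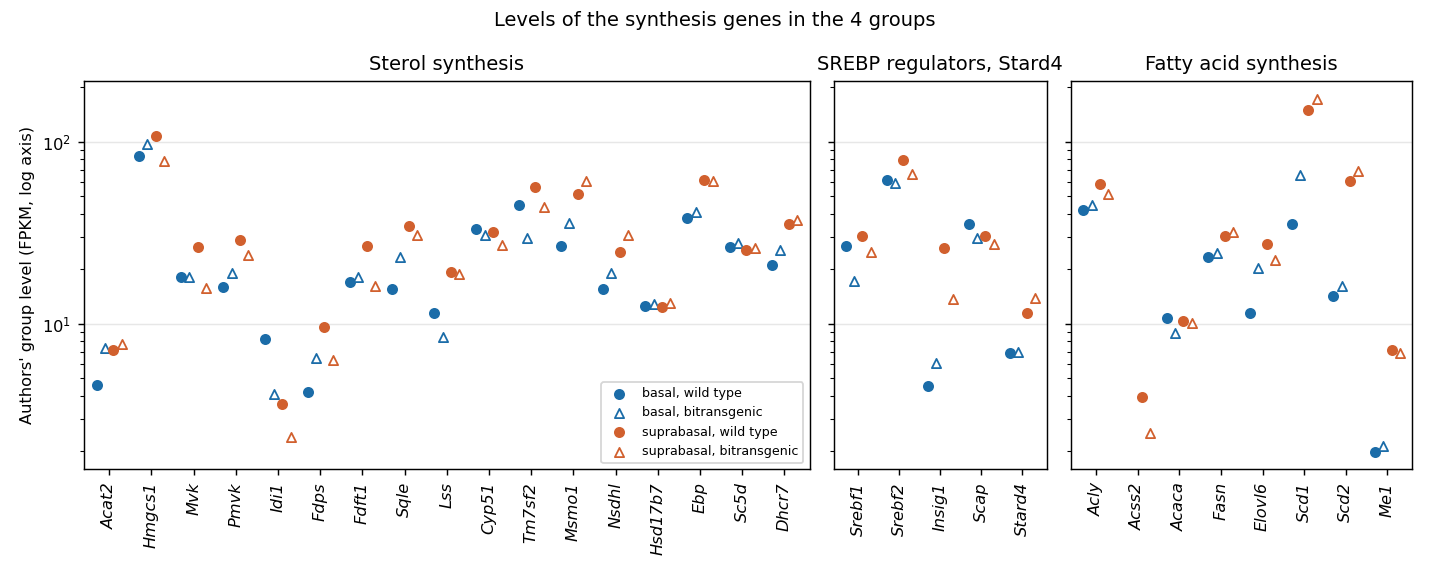
Authors' group level (FPKM, log axis) of each synthesis gene in wild type (filled circles) and bitransgenic (open triangles) cells of the basal (blue) and suprabasal (orange) layer, 1 value per group. Hmgcs1 and Scd1 reach the highest values, and for Insig1, Scd1, Scd2 and Me1 both suprabasal values lie above both basal values.

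The early enzymes turn acetyl-CoA into mevalonate and on to activated isoprenoids. Acat2, the cytosolic thiolase of the first step, had levels of 4.61, 7.31, 7.20 and 7.74 FPKM. Hmgcs1, the HMG-CoA synthase, had 83.6, 97.5, 108 and 78.0 FPKM, the highest of the sterol enzymes in all 4 groups. Mevalonate kinase, Mvk, had 18.0, 17.9, 26.3 and 15.6 FPKM. The wild type suprabasal value of Hmgcs1 and Mvk was thus their highest and the bitransgenic suprabasal value their lowest. Pmvk, the next kinase, had 16.0, 18.9, 29.0 and 24.0 FPKM. Idi1, which isomerizes isopentenyl diphosphate, had 8.24, 4.10, 3.63 and 2.37 FPKM. Fdps, which makes farnesyl diphosphate, had 4.24, 6.50, 9.64 and 6.30 FPKM. Idi1 differed from the other enzymes of this stretch in having its highest level in wild type basal cells.

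Squalene and lanosterol are made next. Fdft1, the squalene synthase, had 17.0, 18.0, 26.8 and 16.0 FPKM, in a locus that also reaches the protease gene Ctsb. Sqle, the epoxidase that controls flow after mevalonate, had 15.4, 23.2, 34.5 and 30.8 FPKM. Lss, the lanosterol synthase, had 11.4, 8.42, 19.1 and 18.9 FPKM. All 3 had their highest level in wild type suprabasal cells. In the basal layer Sqle stood higher and Lss lower in bitransgenic cells, and Fdft1 differed little.

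Among the enzymes that turn lanosterol into cholesterol, some differed little between the groups. Cyp51, the lanosterol demethylase, had 33.0, 30.7, 31.9 and 27.0 FPKM, in a locus that touches Akap9. Hsd17b7, the ketoreductase of the demethylation complex, had 12.6, 12.8, 12.3 and 13.0 FPKM, and the desaturase Sc5d had 26.2, 27.6, 25.3 and 26.2 FPKM. None of these 3 differed by 1.5-fold between any groups. Msmo1, the sterol methyl oxidase, had 26.8, 35.7, 51.6 and 60.8 FPKM. Nsdhl, the decarboxylating dehydrogenase, had 15.6, 18.9, 24.7 and 30.6 FPKM. Ebp, the sterol isomerase, had 38.1, 41.3, 61.8 and 61.2 FPKM. Dhcr7, the last reductase, whose substrate is also the skin's precursor of vitamin D, had 20.9, 25.4, 35.4 and 37.3 FPKM. In these last 4 both suprabasal groups stood above both basal groups. The sterol reductase Tm7sf2 had 44.7, 29.6, 56.2 and 43.9 FPKM, but its locus is merged with Vps51 and Zfpl1, so the values are not its own alone. A second, low Hsd17b7 locus had 2.04, 0.0870, 4.25 and 2.17 FPKM, with authors' p-values of 0.399 in basal and 0.747 in suprabasal cells.

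Nsdhl and Ebp lie on the X chromosome, and the groups differed in sex-linked RNA. The locus with Xist, the RNA of the inactive X, stood at 0.258 (wild type) and 107.9 FPKM (bitransgenic) in basal cells, and at 0.236 and 102.7 in suprabasal cells. The Y-linked Ddx3y stood at 32.1 and 20.7 FPKM in basal and 31.2 and 14.1 in suprabasal cells. Eif2s3y, also Y-linked, had 35.2 and 23.0 FPKM in basal and 38.9 and 28.6 in suprabasal cells. Kdm5d, likewise, had 6.74 and 2.97 FPKM in basal and 5.43 and 2.19 in suprabasal cells. The main locus of the Y-linked Uty stood at 63.6 and 25.5 FPKM in basal and 66.7 and 71.6 in suprabasal cells. Its second locus had 15.9 and 6.89 FPKM in basal and 11.3 and 10.1 in suprabasal cells. Of these Y-linked values only the main Uty locus in suprabasal cells was not lower in bitransgenic cells. The part of the sex mix in the levels of the members was not tested.

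Among the regulators, Srebf2, the SREBP gene tied most to sterol synthesis, had 61.8, 59.4, 79.2 and 66.3 FPKM. Srebf1, tied most to fatty acid synthesis, had 26.6, 17.1, 30.3 and 24.7 FPKM, in a locus that reaches the neighbour Rai1. Scap, the escort of the SREBPs, had 35.2, 29.8, 30.5 and 27.6 FPKM. The levels of these 3 were lower in bitransgenic than in wild type cells of both layers, and all the 95% intervals of these differences include 0. A further Scap locus of the basal table had 113.5 and 23.9 FPKM, with an authors' p of 0.550. Insig1, the sterol-regulated brake on Scap and itself an SREBP target, had 4.55, 6.08, 26.2 and 13.7 FPKM, the widest range among the regulators. Stard4, a carrier of cholesterol in the cytosol, had 6.86, 6.99, 11.4 and 13.8 FPKM.

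Fatty acid synthesis starts from citrate or acetate. Acly, the ATP-citrate lyase, had 42.0, 44.8, 58.6 and 51.6 FPKM. Acss2, which activates acetate, had 3.98 and 2.50 FPKM in wild type and bitransgenic suprabasal cells, in a locus that reaches Ggt7 and Gss. Acaca, the acetyl-CoA carboxylase, had 10.8, 8.83, 10.4 and 10.1 FPKM. Each of these 3 supply and commitment enzymes differed by less than 2-fold between its groups. Fasn, the fatty acid synthase, had 23.2, 24.3, 30.2 and 31.9 FPKM. Me1, the malic enzyme that supplies NADPH, had 1.97, 2.13, 7.17 and 6.93 FPKM. The remaining enzymes act on the product of Fasn. Elovl6, which lengthens palmitate to stearate, had 11.4, 20.2, 27.5 and 22.3 FPKM. The desaturase Scd1, which makes oleate and palmitoleate, had 35.4, 65.4, 149 and 172 FPKM, the highest level of any member in suprabasal cells. Its relative Scd2 had 14.1, 16.0, 60.6 and 69.1 FPKM. Whether the authors' counting separates reads that fit both Scd genes is not stated, so values of these near copies are uncertain to that extent.

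In wild type cells the synthesis genes stood higher in the suprabasal than in the basal fraction. The level was higher in 23 of 29 members, 13 of 17 sterol enzymes, 6 of 7 fatty acid enzymes and 4 of 5 regulators, where 47.2% of all 10583 loci of status OK in both tables were higher. The median log2 ratio was 0.66 for the sterol enzymes and 1.27 for the fatty acid enzymes, beside -0.04 over all loci. The tables were normalized separately and hold 1 value per group, so these ratios are a description without a test.

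More than 2-fold higher in wild type suprabasal cells were 7 members, beside 7.55% of all loci. They were Insig1 (5.76 times), Scd2 (4.28), Scd1 (4.23), Me1 (3.63), Elovl6 (2.41), Fdps (2.28) and Sqle (2.24). Idi1, at 0.440 times, was the only member more than 2-fold lower, beside 6.88% of all loci. The members above the mark include 4 of the 7 fatty acid enzymes and 2 of the 17 sterol enzymes.

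In bitransgenic cells 21 of 29 members stood higher in the suprabasal fraction, beside 48.4% of all loci, but the median ratio of the sterol enzymes was close to 1. It was 0.08 on the log2 scale, that of the fatty acid enzymes 0.39 and that over all loci -0.03. More than 2-fold higher were 5 members, beside 10.9% of all loci: Scd2 (4.32 times), Me1 (3.25), Scd1 (2.64), Insig1 (2.26) and Lss (2.24). No member was more than 2-fold lower, beside 8.49% of all loci. Elovl6 stood at 1.10 times, Sqle at 1.33 and Fdps at 0.969, the 3 members past the mark in wild type cells and not here. Each gene's wild type and bitransgenic ratio is shown in the plot of suprabasal against basal levels. The change of a ratio between genotypes is the same quantity as the difference between layers tested further below.

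**Figure D2:**
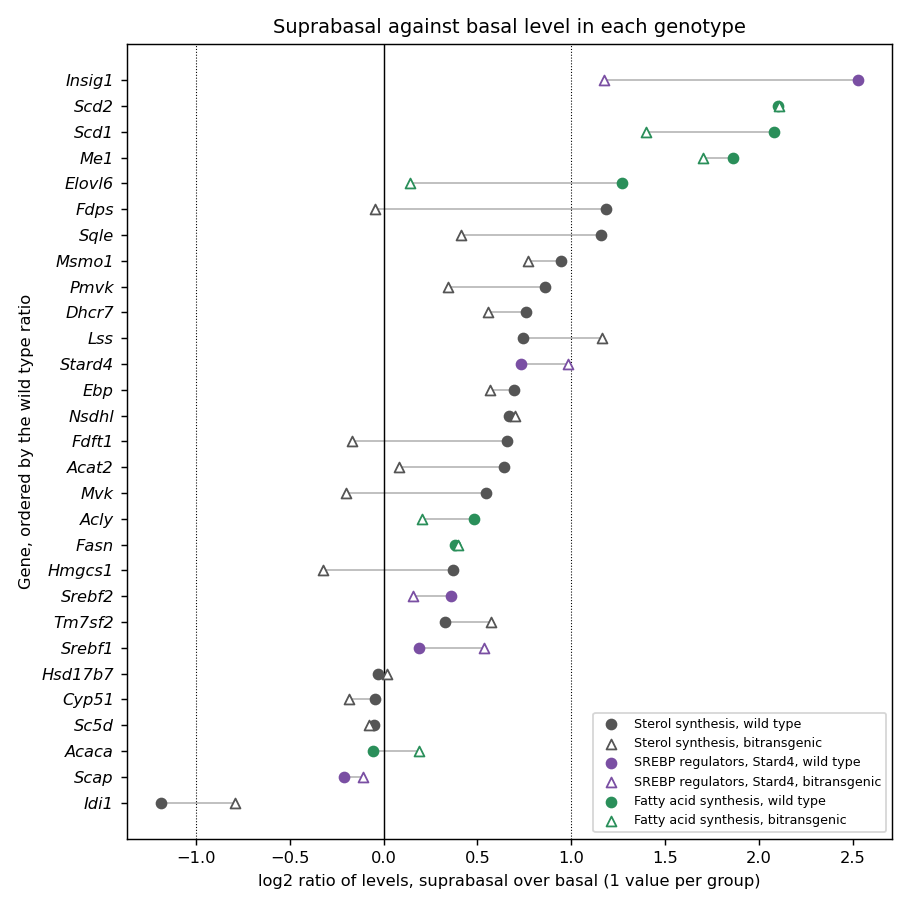
Log2 ratio of the suprabasal to the basal level of each member measured in both layers, in wild type (filled circles) and bitransgenic cells (open triangles), with dotted lines at 2-fold and 1 value per group. Insig1, Elovl6, Fdps and Sqle lie much further right in wild type cells, whereas Scd2, Fasn and Nsdhl have nearly the same ratio in both genotypes.

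In wild type cells marker genes followed the labels of the fractions, and the suprabasal fraction also held melanocyte RNA. All 7 basal keratinocyte markers were higher in wild type basal cells (summed level 18642 against 8625 FPKM), and all 8 suprabasal markers higher in suprabasal cells (8529 against 18575). The basal sum is mostly the Krt5 locus, which is merged with other keratins (Krt2, Krt6b, Krt72, Krt76 and Krt8), and Krt14 is merged with Krt16. In bitransgenic cells all 7 basal markers kept this order and 6 of 8 suprabasal markers did, the exceptions being Krt1 (0.927 times the basal level) and the merged Dsg1a locus (0.658 times). The 6 sebaceous markers measured in both layers were all higher in wild type suprabasal cells. The summed level was 148 FPKM over these 6 in basal cells. In suprabasal cells it was 1671 over 7, which include Awat2 (2.78). Most of each sum was the keratin Krt79 (130 and 1618 FPKM), while Mc5r and Scd3 had no locus of status OK. Melanocyte markers summed to 8.38 FPKM over the 3 measured in wild type basal cells and to 2087 over all 9 in suprabasal cells. Sebocytes are known for high lipid synthesis, and the part of either cell type in the suprabasal levels of the members was not tested. Of 11 adipocyte markers, Adipoq, Plin1, Fabp4 and 5 others had no locus of status OK in either layer. In such bulk samples fewer cells of a type and less RNA per cell cannot be told apart.

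In basal cells no synthesis gene passed the authors' q of 0.05, and the elongase Elovl6 and the desaturase Scd1 had the lowest p-values of the members. Elovl6 had 11.4 (wild type) and 20.2 FPKM (bitransgenic), 1.78 times, a log2 fold change of 0.83 ± 0.29 (95% interval 0.26 to 1.40), with an authors' p of 0.00435 and a q of 0.0586. Scd1 had 35.4 and 65.4 FPKM, 1.85 times, a log2 fold change of 0.89 ± 0.35 (0.20 to 1.58), with a p of 0.0115 and a q of 0.123. Both intervals exclude 0 before adjustment over the loci and neither q passes. The Elovl6 locus spans chr3:129532355-129638495 and the Scd1 locus chr19:44394451-44407709 (mm10), each over its annotated gene.

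The count of calls was 0 of 29 members in basal cells, beside 1.65% of all 11290 loci. At an unadjusted p under 0.05, Elovl6 and Scd1 were the 2 members higher in bitransgenic cells, beside 1.47% of all loci, and 0 were lower, beside 6.21%. Adjusting the authors' p anew by Benjamini-Hochberg over all loci also gave 0, with a smallest member value of 0.231.

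Sterol enzymes had mostly small positive values in basal cells. The log2 fold change was above 0 in 12 of 17 sterol enzymes, 6 of 7 fatty acid enzymes and 2 of 5 regulators, with medians of 0.11, 0.11 and -0.06. Over all loci 39.7% were above 0 and the median was -0.12. Highest among the sterol enzymes were Acat2 (0.66 ± 0.48), Fdps (0.62 ± 0.67) and Sqle (0.59 ± 0.31, p 0.0621, q 0.453). Lowest were Idi1 (-1.01 ± 0.64), the merged locus of Tm7sf2 (-0.60 ± 0.42) and Lss (-0.44 ± 0.48). Srebf1 stood at -0.64 ± 0.44, with a p of 0.148. All of these 95% intervals include 0.

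Fasn and Scd2 were near 0 in basal cells. Fasn had a log2 fold change of 0.06 with a 95% interval from -0.45 to 0.58, and Scd2 0.18 with an interval from -0.48 to 0.84. The intervals leave room for moderate differences in either direction, so these values do not show that the genotypes were alike. The median SE of the members was 0.39 in each layer.

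Keratinocyte and sebaceous markers differed in level between the basal groups too. All 7 basal keratinocyte markers were lower in bitransgenic cells (summed level 18642 against 11914 FPKM), and 5 of 8 suprabasal markers were higher (8529 against 10681). Of the 6 sebaceous markers 4 were higher (148 against 225). Without Krtdap (4173 and 6915 FPKM) the suprabasal markers summed to 4357 in wild type and 3766 in bitransgenic cells, the opposite order. Among them Dsc1 was higher (13.7 and 38.1 FPKM, authors' p 5e-05, q 0.00858) and Lor lower (17.2 and 3.18 FPKM, authors' p 0.0003, q 0.0347). No value adjusted anew over all loci is given for these 2 genes. The part of these shifts in the members' values was not tested.

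**Figure D3:**
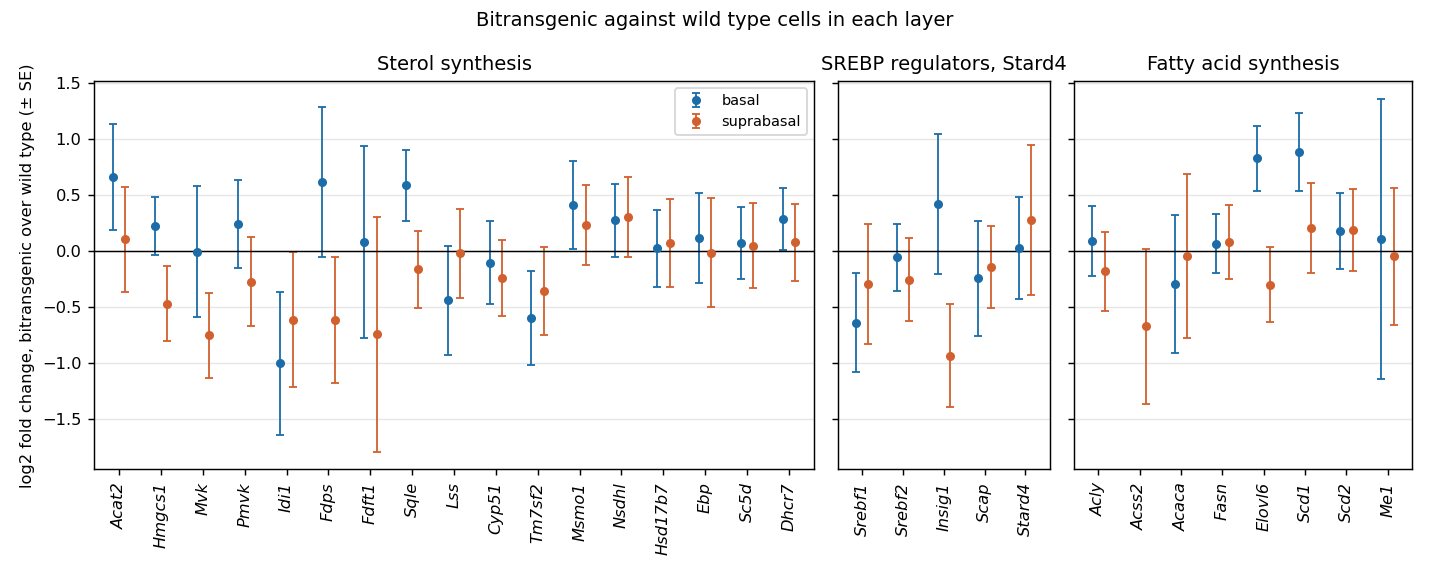
Log2 fold change of bitransgenic over wild type cells for each member in basal (blue) and suprabasal (orange) cells, with bars of 1 SE implied by the authors' p-value. Elovl6 (0.83) and Scd1 (0.89) stand highest in basal cells, and Insig1 (-0.93) and Mvk (-0.75) lowest in suprabasal cells.

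In suprabasal cells no synthesis gene passed the authors' q either, and more members had lower than higher levels in bitransgenic cells. Insig1 had 26.2 (wild type) and 13.7 FPKM (bitransgenic), a log2 fold change of -0.93 ± 0.46 (95% interval -1.84 to -0.03), with an authors' p of 0.0440 and a q of 0.484. Mvk had 26.3 and 15.6 FPKM, a log2 fold change of -0.75 ± 0.38 (-1.50 to -0.01), with a p of 0.0480 and a q of 0.506. Both genes lie on chromosome 5, Insig1 at chr5:28071363-28078662 and Mvk at chr5:114444269-114460592.

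Calls numbered 0 of 30 members in suprabasal cells, beside 0.471% of all 11464 loci. At an unadjusted p under 0.05, Insig1 and Mvk were the 2 members lower in bitransgenic cells, beside 5.16% of all loci, which is a share near that of the members. None was higher, beside 1.95% of all loci. Benjamini-Hochberg adjustment over all loci gave 0 as well, with a smallest member value of 0.679.

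The log2 fold change in suprabasal cells was below 0 in 11 of 17 sterol enzymes, 5 of 8 fatty acid enzymes and 4 of 5 regulators. The medians were -0.16, -0.05 and -0.26, beside -0.08 over all loci, of which 43.4% were above 0. The sterol median was -0.09 over loci of at least 5 FPKM, -0.09 over loci that name 1 gene and -0.08 after centring on expressed loci. The other low values were those of Fdft1 (-0.74 ± 1.05), Acss2 (-0.67 ± 0.69), Fdps (-0.62 ± 0.56), Idi1 (-0.61 ± 0.61) and Hmgcs1 (-0.47 ± 0.33, p 0.158). Along the route to squalene, Acat2 stood at 0.11 ± 0.47 and all later members measured, with Pmvk at -0.28 ± 0.40, below 0, and none passed the test. From Cyp51 to Dhcr7 the values lay between -0.36 and 0.31. Nsdhl (0.31 ± 0.36), Stard4 (0.28 ± 0.67) and Msmo1 (0.24 ± 0.36) were the highest of all members.

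Among the fatty acid enzymes in suprabasal cells, Scd1 and Fasn had values above 0 and Elovl6 below 0. Scd1 had 149 (wild type) and 172 FPKM (bitransgenic), a log2 fold change of 0.21 with a 95% interval from -0.58 to 0.995. For Elovl6, with 27.5 and 22.3 FPKM, the value was -0.30 with an interval from -0.95 to 0.35. Fasn stood at 0.08, with an interval from -0.57 to 0.73. All 3 intervals include 0 and reach past a 1.5-fold difference in some direction.

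Markers of other cells differed between the suprabasal groups as well. All 9 melanocyte markers were higher in bitransgenic cells (summed level 2087 against 3868 FPKM), and the sebaceous sum was 1671 against 1476 with 5 of 7 markers higher. The 7 basal keratinocyte markers summed to 8625 and 4642 FPKM and the 8 suprabasal markers to 18575 and 14018. Of these 8 markers 5 were higher in bitransgenic cells, and the lower sum came mostly from Krt10 (6574 and 2354 FPKM) and Krt1 (3419 and 1622). Their part in the members' values was not tested.

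**Figure D4:**
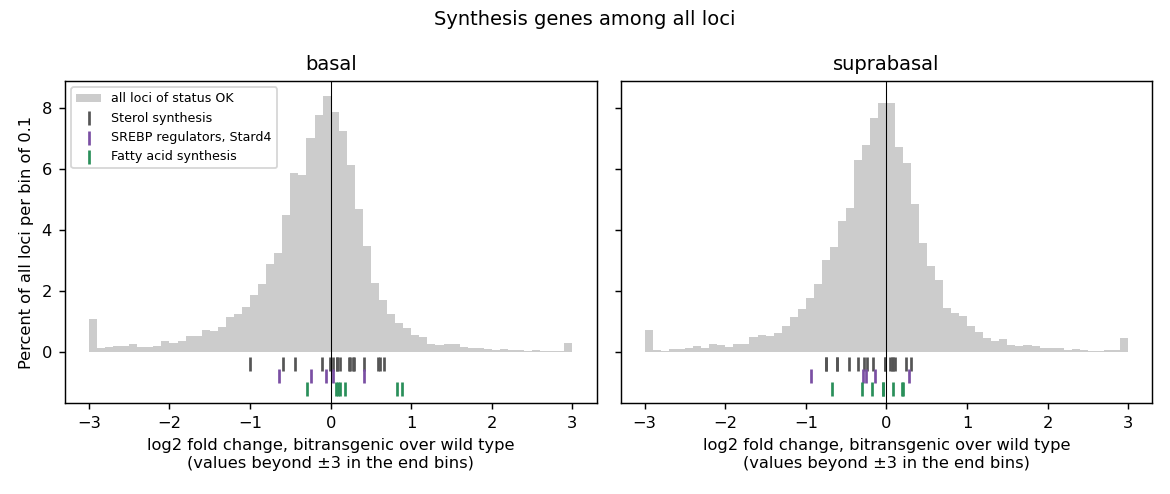
Share of all loci per 0.1 of log2 fold change (grey) in basal and suprabasal cells, with ticks for the sterol enzymes (dark grey), the regulators with Stard4 (purple) and the fatty acid enzymes (green), values beyond 3 placed in the end bins. The ticks lie within the main body of the loci, with medians over the members of 0.09 in basal and -0.15 in suprabasal cells.

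The effect of genotype was then compared between the layers per locus, by subtracting the basal from the suprabasal log2 fold change and testing the result with a Wald z-test (two-sided). Of the 29 members, 0 passed after Benjamini-Hochberg adjustment, beside 0.0378% of 10583 loci, and every member had an adjusted p of 1. Elovl6 was the 1 member under an unadjusted p of 0.05, beside 3.08% of all loci. Its difference was -1.13 ± 0.44 (95% interval -2.00 to -0.26), with an unadjusted p of 0.0107. The groups behind it were 11.4 against 20.2 FPKM in basal and 27.5 against 22.3 in suprabasal cells, and the suprabasal fold change has an interval that includes 0.

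The difference was below 0 in 18 of 29 members, 12 of 17 sterol enzymes and 4 of 7 fatty acid enzymes, where 50.7% of all loci were below 0. The median was -0.16 over the members and -0.01 over all loci. The next members by p were Insig1 (-1.35 ± 0.78, p 0.0828), Hmgcs1 (-0.69 ± 0.42, p 0.101), Sqle (-0.75 ± 0.47, p 0.109) and Fdps (-1.23 ± 0.87, p 0.158). For all 4 the wild type level was higher in the suprabasal layer, and the bitransgenic ratio of suprabasal to basal level was lower. Independence of the layers is assumed, yet 3 wild type stems and 1 bitransgenic stem of the sample titles recur in both.

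Genes around the pathway were read from lists of the same choice. Among 11 other genes of sterol synthesis and SREBP processing none was called in either layer, and 9 of 11 had a value below 0 in each. Of all loci 39.7% in basal and 43.4% in suprabasal cells were above 0, the background for this list and those below. The shares called over all loci, 1.65% in basal and 0.471% in suprabasal cells, are likewise the background for their counts of calls. The SREBP protease Mbtps1 was lowest in basal cells (25.5 and 19.5 FPKM). In suprabasal cells Erlin1, a protein of the endoplasmic reticulum membrane, was highest (24.5 and 43.4 FPKM), and the protease Mbtps2, in a locus with Yy2, lowest (12.3 and 6.83 FPKM).

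The isoprenoid branch holds the enzymes that attach and process the farnesyl group of prelamin A. None of its 14 measured genes was called in either layer, with 6 above and 8 below 0 in basal and 5 above and 9 below 0 in suprabasal cells. Ggps1, which makes geranylgeranyl diphosphate, was highest in basal cells (2.96 and 7.08 FPKM, 1.26 ± 1.32), and Icmt, which methylates the farnesylated end, lowest (15.4 and 8.83 FPKM, -0.80 ± 0.49). In suprabasal cells Fntb, the farnesyltransferase subunit in a locus with Churc1, was highest (48.9 and 80.7 FPKM), and Coq2 of ubiquinone synthesis lowest (9.62 and 4.76 FPKM).

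Of 13 measured uptake and transport genes in basal cells 1 was called, beside 1.65% of all loci. It was Gramd1b, which moves cholesterol from the plasma membrane to the endoplasmic reticulum. Gramd1b fell in basal cells from 3.05 to 0.345 FPKM (-3.14 ± 1.03, q 0.0385), and its suprabasal levels were 1.17 and 3.64 FPKM (q 0.452). Its p adjusted anew by Benjamini-Hochberg over all loci was 0.177. None of the 12 measured in suprabasal cells was called.

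The LXR and cholesterol efflux list holds the sterol-sensing receptor LXR and its partner as well as other genes, so not all are efflux genes. Its values were below 0 in 7 of 7 measured in basal and 5 of 7 in suprabasal cells, with none called. The medians were -0.73 and -0.47. Beside these counts, 39.7% of all loci in basal and 43.4% in suprabasal cells were above 0. Apoe, the carrier of exported lipid, had 975 and 754 FPKM in basal cells (-0.37 ± 0.36), the value nearest 0. The LXR gene Nr1h2 had 43.2 and 20.8 FPKM (-1.05 ± 0.69), the lowest. Mylip, which degrades the LDL receptor, had 23.1 and 12.0 FPKM in basal cells (-0.94 ± 0.36, p 0.00940, q 0.103) and 26.1 and 27.0 in suprabasal cells. The LXR partner Rxra had 64.1 and 44.1 FPKM in basal cells (p 0.0462, q 0.370) and 72.9 and 43.4 in suprabasal cells (p 0.0318, q 0.406), and is named here after its values were seen. In suprabasal cells the transporter Abca2 had 9.90 and 5.17 FPKM (-0.94 ± 0.46, p 0.0402, q 0.459).

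Of the 4 cholesterol ester, sulfate and oxysterol genes measured in each layer none was called. Over all loci 1.65% were called in basal and 0.471% in suprabasal cells, so a list this short says little. Sult2b1, the epidermal cholesterol sulfotransferase, had 37.5 and 72.5 FPKM in basal cells (0.95 ± 0.33, p 0.00400, q 0.0545) and 88.8 and 94.8 in suprabasal cells. Cyp39a1, an oxysterol hydroxylase, had 5.32 and 1.52 FPKM in basal cells. In suprabasal cells the esterase Nceh1 had 7.28 and 8.88 FPKM and the acyltransferase Soat1 had 19.9 and 16.4.

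Among other genes of fatty acid synthesis, elongation and desaturation 1 of 17 was called in basal cells and 0 of 22 in suprabasal cells. The shares over all loci were 1.65% and 0.471%. Elovl4, which makes the very long fatty acids of barrier ceramides, rose in basal cells from 34.7 to 69.1 FPKM (0.99 ± 0.29, q 0.0371), and had 87.0 and 93.5 FPKM in suprabasal cells. Its p adjusted anew over all loci by Benjamini-Hochberg was 0.0815.

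Genes that burn or store fatty acids were read beside those that make them. In fatty acid oxidation 13 of 16 genes had values below 0 in basal and 10 of 15 in suprabasal cells, with none called. Values above 0 were held by 39.7% of all loci in basal and 43.4% in suprabasal cells. Acadm, the medium-chain dehydrogenase, was lowest in suprabasal cells, with 49.4 and 25.9 FPKM (-0.93 ± 0.48), and had 49.5 and 25.5 in basal cells. Hadh was highest in basal cells (73.7 and 85.2 FPKM). Among loci of at least 5 FPKM in the higher group, Cpt1b, in a locus with Chkb, was lowest there (18.2 and 7.19). Ppara, under that level, had a lower value (4.74 and 1.63 FPKM, -1.54 ± 0.81). Cpt1b was highest in suprabasal cells (12.6 and 19.7). Of 9 triglyceride and lipid droplet genes measured in basal cells 1 was called, beside 1.65% of all loci. It was the monoglyceride lipase Mgll, which fell from 17.7 to 5.15 FPKM (-1.78 ± 0.46, q 0.0135, adjusted anew 0.0217). In suprabasal cells Mgll had 39.9 and 48.4 FPKM, and none of the 10 genes measured there was called. A second, low Mgll locus had 3.40 and 0.240 FPKM in basal cells (authors' p 0.373). In suprabasal cells this locus had 3.65 and 4.66 FPKM (authors' p 0.892).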

How the data were processed

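RNA-seq levels of 10 samples in 4 groups (3 wild type and 2 bitransgenic samples per layer) were analysed. TopHat, Cufflinks and the build mm10 are named, without versions, in the submitters' processing notes. The authors deposited 1 table per layer in the form of a Cuffdiff table: a group level per genotype, read as FPKM because the header gives no unit, a log2 fold change, a test statistic (a score, used in an alternative), and the authors' p-value and q-value. How the libraries were scaled is not stated, and no depth can be given.

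A gene was called at status OK and the authors' q under 0.05. The SE was taken as the size of the log2 fold change over the normal quantile that the authors' p implies (two-sided), and 95% intervals use it. The Wald z-test of the layer difference was adjusted by Benjamini-Hochberg over 10583 loci. Its code was run on simulated fold changes, drawn independently per layer with the SEs that the test assumes. That run checks the code and cannot check whether the layers are independent. Of several loci for a gene, the one present in both tables with the highest summed level was used. The deposited log2 fold changes differed from those of the levels by at most 4.13e-05.

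The members, lists and tests were chosen with earlier results of these data known. Named genes are all measured members and, of the other lists, the called genes or, with none, the highest and lowest fold change per layer among loci of at least 5 FPKM. One gene that this rule names is not reported here. The title stems are not said to be animals, so the p-values measure the spread between samples as the authors modelled it, which may be technical. Python 3.11.15, pandas 2.3.3, numpy 2.4.6, scipy 1.17.1 and matplotlib 3.10.9 were used.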

Additional observations from a re-analysis of the deposited data

How the results depend on the processing

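In each layer no member was called when the authors' p was readjusted over all loci, centred on the median of expressed loci (-0.11 in basal and -0.08 in suprabasal cells), or limited to loci that name 1 gene or to at least 5 FPKM. For the layer difference none was called after centring each layer or with the SE from the test statistic, and no other adjusted alternative was run for it. Without adjustment, at a p under 0.05, 2 members passed in basal cells, 2 in suprabasal cells and 1 for the layer difference. Over all loci readjustment left 63 basal and 47 suprabasal calls, against 186 and 54 by the authors' q, and centring left 41 and 37. Centring moved the basal medians of the sterol and fatty acid enzymes to 0.22 each, and that of the fatty acid enzymes in suprabasal cells from -0.05 to 0.03. The suprabasal sterol median went from -0.16 to -0.09 over loci of at least 5 FPKM and over loci that name 1 gene, and to -0.08 with centring. With centring 3 members had an unadjusted p under 0.05 in basal and 0 in suprabasal cells. No share of all loci is given at this setting, so these counts too stand without a background. At a 1.5-fold mark, 16 members were higher in suprabasal than in basal cells of the wild type and 8 in bitransgenic cells. The share of all loci past this mark was not computed, so these counts have no background beside them. No paired analysis was possible because the tables hold 1 value per group, and leaving out single samples was not possible for the same reason. Precision is limited by the few samples, and depth is unknown.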
